A study of Mus musculus with 78 samples.

Results

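The soleus muscle of female C57Bl/6 mice aged 28 months was compared with that of females aged 20 months across all genes, in 12 of the 78 bulk RNA-seq libraries of a study of muscle ageing and of compounds given in the feed. The libraries were taken by their labels, which give the letter F, batch 1 and either 28 months (6 libraries, replicates 8 to 13) or 20 months (6 libraries, replicates 1 to 6). Mice of both groups were wild type as far as the labels say and ate control feed (Teklad 2918) with no added compound. The 20-month mice came from the Jackson laboratory and were housed for 2 months before the experiment began. The supplier of the 28-month mice of batch 1 is not given in the sources used here, so that age, cohort and supplier cannot be told apart. The names of the 12 libraries carry different tags, which were read here as animal tags. The labels do not state that the replicates were separate mice, so the spread between libraries behind the p-values may be technical in part. That spread was estimated over all groups of the series and not from these 12 libraries alone. The counts are given with all 12 libraries and again for the 9 libraries left without 28-month replicates 8, 10 and 12, which carried transcripts of skin or marrow, and a single value for a gene is from the fit with 12 libraries unless stated. A further 7 control F libraries of 28 months from batch 2, and the M libraries of batch 1 (5 of 28 months and 9 of 20 months), served for comparison only.

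The soleus is a postural calf muscle built of slow oxidative fibres, which use the slow myosin heavy chain Myh7, and of fast oxidative fibres, with few of the glycolytic fast fibres that dominate other limb muscles. Around the fibres lie a collagen scaffold, capillaries, nerve endings, resident macrophages and matrix-producing fibroblasts, and all of them contribute RNA to a bulk sample. Late in life muscles are known to lose mass and nerve contacts, and the genes studied for this include those of protein synthesis and breakdown, the denervation response, energy metabolism and the matrix.

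Libraries held 30453296 to 59401193 estimated counts at 28 months and 34431653 to 60018422 at 20 months, of which genes of the mitochondrial genome took 10.05 to 17.3% and 15.0 to 17.1%. Levels of single genes below are in CPM (counts scaled to a library total of 1000000, after TMM scaling), and summed levels of gene lists use the unscaled total. Neither is divided by gene length, so they are compared between libraries and not between genes. The slow myosin gene Myh7 was abundant in all 12 libraries (6170 to 18420 CPM). The RNA Xist, made from the inactive X chromosome, was at 50.4 to 180 CPM in all 12 and the Y-linked gene Ddx3y at 0. In other groups of the series 5 libraries went against their sex label.

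Several of the 28-month libraries stood apart from the rest before any comparison was made. Genes of skin and hair follicle (20 markers, of which 2 were at 0 in all 20-month libraries) summed to 14600 CPM in replicate 8, against 17.3 to 25.2 CPM in the other 28-month libraries and 14.5 to 19 CPM at 20 months. Genes of neutrophils and their granules (16 markers, 3 at 0 in all 20-month libraries) summed to 1692 CPM in replicate 10, 590 CPM in replicate 12 and 69.0 CPM in replicate 9. In the remaining 28-month libraries that sum was 2.88 to 5.58 CPM, and at 20 months it was 0.755 to 2.66 CPM. Replicate 10 also had the highest sums of erythroid and megakaryocyte genes (769 CPM) and of cartilage and bone genes (378 CPM). The 3 28-month libraries that were kept also differed from each other. Replicate 9 had the highest sum of fast fibre genes (89250 CPM, against 34590 to 48680 CPM in the other 28-month libraries) and low sums of collagen and matrix genes (696 CPM). Replicate 11 had high sums of B and plasma cell genes (1019 CPM) and of T and natural killer cell genes (25.1 CPM). Replicate 13 had the lowest sum of endothelial genes (265 CPM, against 700 to 969 CPM in the other 28-month libraries). The plot of marker sums by library shows these values.

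**Figure D1:**
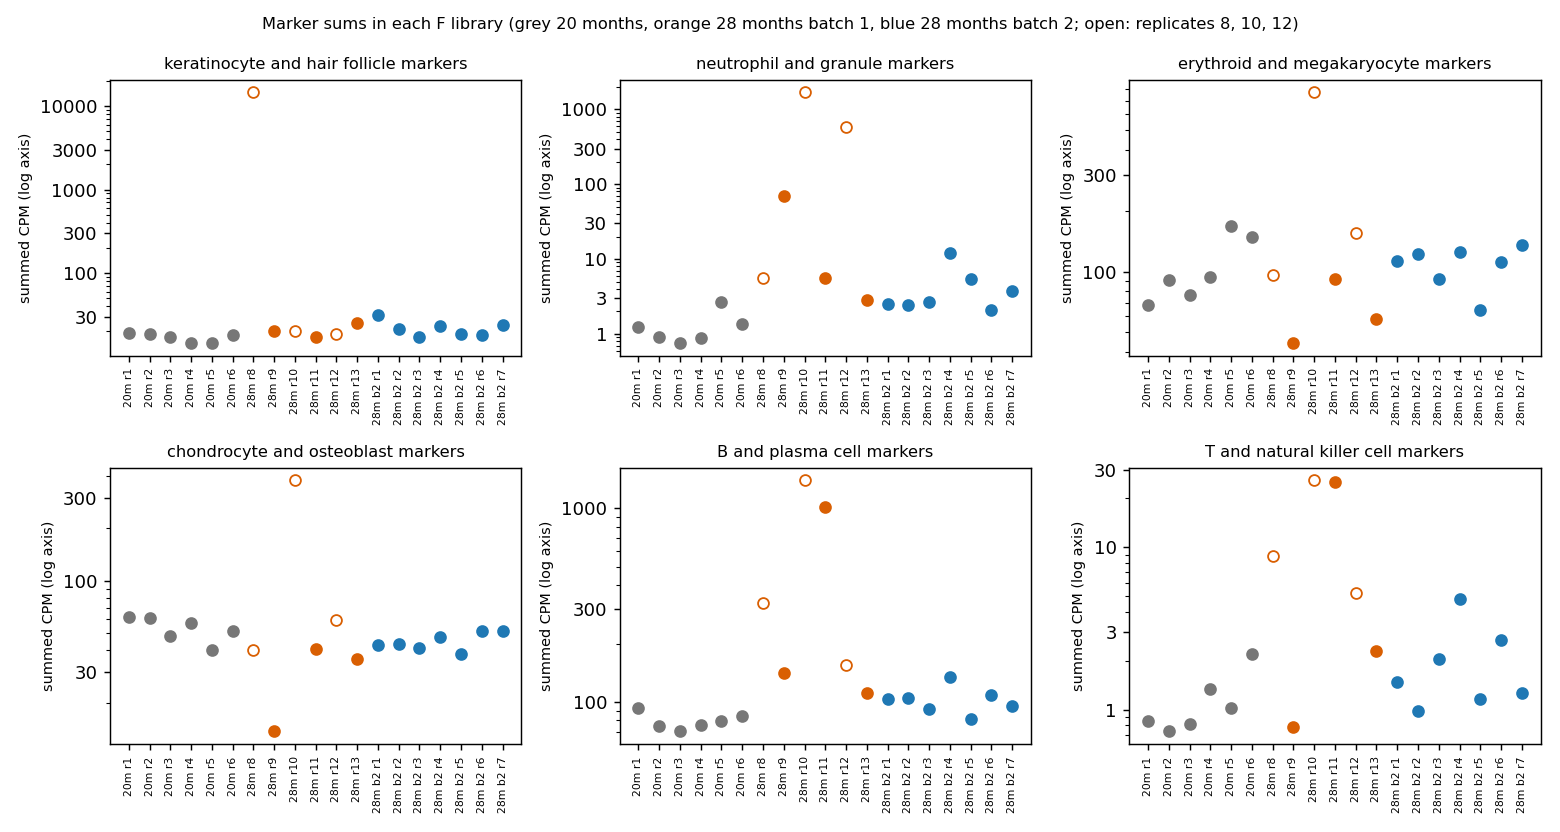
Summed CPM of 6 marker lists (log axis) in each F library: 20 months (replicates 1 to 6), 28 months batch 1 (replicates 8 to 13) and 28 months batch 2 (7 libraries). Replicate 8 stands at 14600 CPM for skin and hair follicle genes, and replicates 10 and 12 at 1692 and 590 CPM for neutrophil genes, while the 20-month libraries stay at 14.5 to 19 and at 0.755 to 2.66 CPM on these lists.

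With all 12 libraries, 5452 of 18218 genes tested (29.9%) differed between the ages, 3155 higher at 28 months (17.3%) and 2297 lower (12.6%). By limma-voom the split turned to 2067 higher and 2376 lower. The test was edgeR's quasi-likelihood test with all groups of the series in the fit, and a gene was counted at a Benjamini-Hochberg adjusted p below 0.05. Without replicates 8, 10 and 12, 3951 of 18405 genes (21.5%) differed, 2115 higher (11.5%) and 1836 lower (9.98%). Both fits called 1671 genes higher, which is 53% of those called with 12 libraries and 79.0% of those called with 9. Both called 1316 genes lower, 57.3% and 71.7% of the respective counts, and 0 genes went in opposite directions. The median log2 change over all genes tested was 0.09 with 12 libraries and -0.01 with 9. In a stricter description that uses no model, 731 genes (4.01%) had all 28-month values above all 20-month values and 1325 genes (7.27%) had all of them below. Leaving replicate 13 out of the 9 libraries reduced the count to 2122, and tests against a fold of 1.2 gave 2785 genes with 12 libraries and 1997 with 9.

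Genes called higher had shorter transcripts than genes called lower. The median transcript length was 2178 bases for the genes called higher with 12 libraries, 5537 bases for those called lower and 3079 bases over all genes whose length is known (97.5% of those tested). With 9 libraries the medians were 2053, 5453 and 3065 bases. Of the 10% of genes with the shortest transcripts 28.3% were called higher and 1.13% lower with 12 libraries, and of the 10% with the longest 3.6% and 45.8%. When offsets removed each library's trend with transcript length and with GC content, 1598 genes were called higher (8.77%) and 731 lower (4.01%) with 12 libraries, and 1816 higher (9.87%) and 578 lower (3.14%) with 9. RNA quality values were not used here, and the part of RNA quality in the relation to length was not tested.

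**Figure D2:**
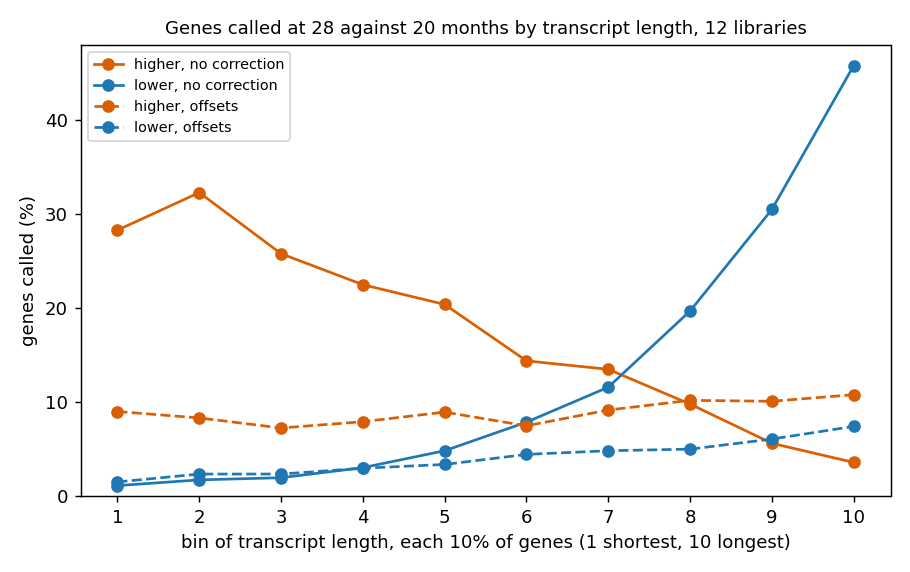
Percentage of genes called higher (orange) and lower (blue) at 28 months, in 10 bins of transcript length, with 12 libraries. Solid lines are the fit without a correction and dashed lines the fit with offsets on length and GC. In the shortest bin 28.3% were called higher and 1.13% lower, and in the longest 3.6% and 45.8%, while with the offsets the longest bin had 10.8% higher and 7.43% lower.

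Among genes called in both fits whose values did not overlap between the ages in any of the 12 libraries, the 10 with the largest rises were S100a9, Pcdhgc4, Krt18, Cxcl10, Tbc1d10c, Gadd45a, Dok3, Apol9b, Rundc3a and Wnt4. Gadd45a (chromosome 6, 67035096 to 67037457, build mm10), a growth arrest gene that rises in denervated muscle, stood at 10.1, 11.6 and 14.7 CPM at 20 months (lowest, median and highest library) and at 23.3, 52.4 and 224 CPM at 28 months. Its values were above those of every 20-month library in all 6 28-month libraries, highest in replicates 11 and 13. The log2 change was 2.79 ± 0.59 (SE, n = 6 per age, edgeR adjusted p = 0.00027) with 12 libraries and 3.50 ± 0.64 (n = 3 against 6, adjusted p = 5.7e-05) with 9. Wnt4 (chromosome 4, 137277489 to 137299726), which encodes a secreted signalling protein, was 1.82, 3.61 and 4.67 CPM at 20 months and 6.03, 13.0 and 22.4 CPM at 28 months. It rose by a log2 of 2.04 ± 0.39 (adjusted p = 6.3e-05) and by 2.30 ± 0.43 (adjusted p = 7.6e-05) in the 2 fits. Both genes kept their call when any single library was left out of either fit.

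The other rises rested on fewer libraries or lower levels. S100a9, which encodes a neutrophil calcium-binding protein, was 0 to 0.568 CPM at 20 months and 315 and 118 CPM in replicates 10 and 12, against 0.709 to 6.59 CPM in the other 28-month libraries, and with 9 libraries it was not called once replicate 9 was left out. Krt18, a keratin of simple epithelia, was 0.104 to 0.766 CPM at 20 months and 1.46 to 36.4 CPM at 28 months, and Cxcl10, a chemokine induced by interferon, was 0 to 0.275 and 0.358 to 7.92 CPM. The highest value of both belonged to replicate 11, and neither passed with 9 libraries once that replicate was left out. The adaptor gene Dok3 (0.364 to 1.54 CPM at 20 months, 1.89 to 20.9 CPM at 28 months) and Tbc1d10c (0.112 to 0.292 and 0.442 to 7.30 CPM) were highest in replicate 10, and with 9 libraries they too were not called without replicate 11. Apol9b, an apolipoprotein L family gene, was 0.17 to 0.518 CPM and 0.982 to 3.38 CPM, and Rundc3a 0.159 to 0.339 and 0.44 to 1.49 CPM, and with 9 libraries neither passed without replicate 13. Pcdhgc4 rose from 0 to 0.59 CPM to 4.11 to 15.3 CPM (log2 5.32 ± 1.00, adjusted p = 5.2e-05), while Pcdhga10, among the largest falls, went the other way. Both belong to the protocadherin gamma cluster, whose transcripts share exons, so the counts of each member are uncertain.

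The 10 largest falls under the same rule were Gucy1a2, Necab1, Hhip, Cilp2, Pcdhga10, Hipk2, Crispld1, Ssc5d, Fmod and Ptx4. Hipk2 (chromosome 6, 38694390 to 38876165), a nuclear protein kinase, stood at 106, 121 and 151 CPM at 20 months (lowest, median and highest) and at 23, 29.97 and 43.1 CPM at 28 months. Every 28-month library lay below every 20-month library by a wide gap. The log2 change was -2.06 ± 0.31 (edgeR adjusted p = 1.2e-06, n = 6 per age) with 12 libraries and -1.76 ± 0.40 (adjusted p = 0.00081) with 9. Fmod (chromosome 1, 134037254 to 134048277), which encodes fibromodulin, a proteoglycan that organises collagen fibrils in tendon, was 263, 300.2 and 367 CPM at 20 months and 27.6, 89.7 and 158 CPM at 28 months. Its log2 change was -1.93 ± 0.44 (adjusted p = 0.00069) and -2.62 ± 0.59 (adjusted p = 0.00081), with the lowest values in replicates 9 and 13. Both of those libraries were also lowest for Cilp2, a cartilage matrix gene (0.284 to 5.62 CPM, against 9.7 to 18.6 CPM at 20 months), and for Ssc5d, a scavenger receptor gene (1.24 to 10.3 against 20.9 to 29.6 CPM).

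Low in level but apart between the ages were Gucy1a2, a subunit of the nitric oxide receptor (0.72 to 1.80 CPM at 20 months, 0 to 0.376 CPM at 28 months), Hhip, an inhibitor of hedgehog ligands (1.27 to 2.06 and 0 to 1.02 CPM), and the calcium-binding protein gene Necab1 (0.814 to 1.48 and 0 to 0.465 CPM). Crispld1, which encodes a secreted protein, fell from 7.30 to 10.3 CPM to 0.827 to 4.10 CPM (log2 -1.95 ± 0.34, adjusted p = 2e-05), and Ptx4, of the pentraxin family, from 3.92 to 5.97 CPM to 0.0258 to 2.46 CPM (log2 -1.91 ± 0.55, adjusted p = 0.0069). These falls were called in all leave-one-out fits of the 12 libraries. With 9 libraries Necab1, Ptx4 and Pcdhga10 lost the call when replicate 13 was left out, Necab1 and Ptx4 also without replicate 9, and Pcdhga10 also without replicate 11.

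**Figure D3:**
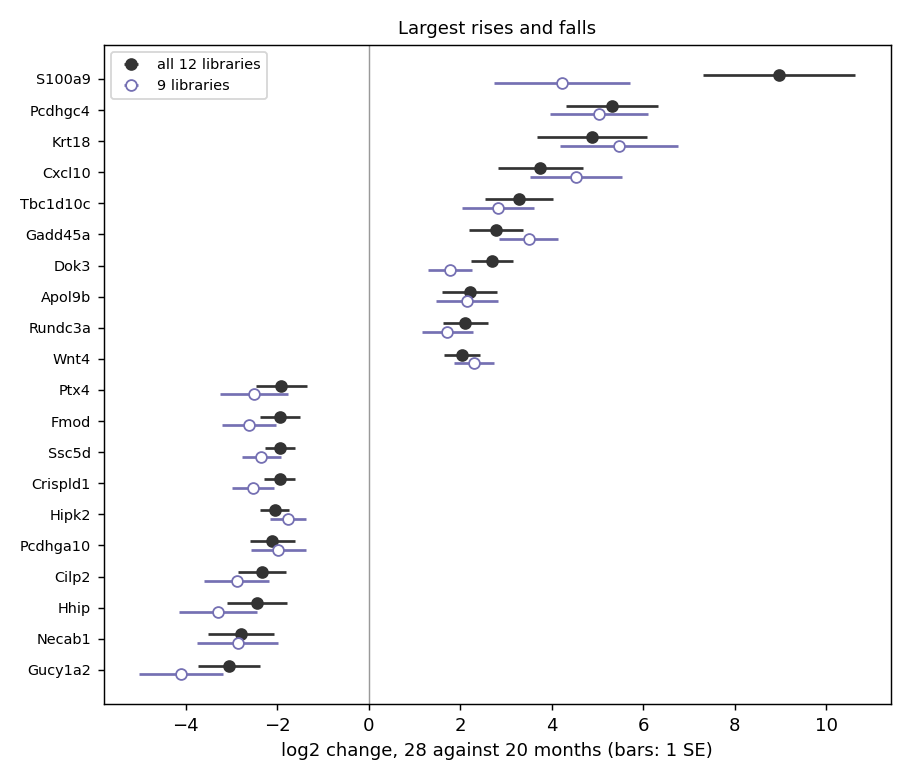
Log2 change from 20 to 28 months of the 10 largest rises and 10 largest falls, with bars of 1 SE, for all 12 libraries (filled) and for the 9 libraries without replicates 8, 10 and 12 (open). S100a9 moves from 8.97 to 4.23 between the fits, and Hipk2 from -2.06 to -1.76, while Fmod goes from -1.93 to -2.62.

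The largest changes with 12 libraries, taken without the condition on both fits, were genes of skin and marrow. Krt14, Krt15, Krt2, Krt5 and Krt1, keratins of the epidermis, were at 310 to 1332 CPM in replicate 8 and at no more than 0.417 CPM in any other of the 12 libraries. Mpo, the granule enzyme myeloperoxidase, was 100 CPM in replicate 10 and 42.7 CPM in replicate 12, against at most 0.301 CPM elsewhere. Without replicates 8, 10 and 12 none of these 6 genes passed (edgeR adjusted p from 0.19 to 0.94), which follows from leaving those libraries out for such transcripts. The 5 keratins lost their call when replicate 8 alone was left out.

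Genes of the cytosolic ribosome rose together. Of the 56 ribosomal protein genes tested, 54 were called higher and 0 lower with 12 libraries, with a median log2 change of 0.71, and with 9 libraries 53 were higher and 0 lower, with a median of 0.80. The summed level of the list was 9572 to 11630 CPM at 20 months and 15980 to 22170 CPM at 28 months, so that the lowest 28-month library lay above the highest 20-month library. The count of 54 was the same without any one of the 12 libraries. The genes are short (median 1114.5 bases), and with the length and GC offsets 37 rose with 12 libraries and 48 with 9.

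The single ribosomal protein genes given here were taken for their low p, a choice that favours values that are tight within an age and apart between the ages. Rpl27, a protein of the large subunit, was 133, 149 and 154 CPM at 20 months (lowest, median and highest) and 216, 248 and 356 CPM at 28 months. It rose by a log2 of 0.83 ± 0.12 (edgeR adjusted p = 7.2e-07) with 12 libraries and by 0.94 ± 0.14 (adjusted p = 3.2e-06) with 9. Rps4x, of the small subunit, was 233, 240 and 252 CPM and 328, 383 and 508 CPM (log2 0.72 ± 0.11, adjusted p = 1.2e-06). Rpl32 (72.2 to 99.3 CPM at 20 months, 138 to 209 CPM at 28 months) and Rps19 (62.0 to 78.5 and 116 to 167 CPM) each rose by a log2 of 1.00 (SE 0.16 and 0.15). None of these 4 genes had overlapping values between the ages, which their choice by low p favours and which does not describe the whole list.

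Transcripts of ribosomal protein genes are known to begin with a run of pyrimidines (C or T), through which their translation is controlled together. The starts of the 4 ribosomal protein genes with the lowest p in the fit of 9 libraries are shown, because nearly all members of the family rose. Each is the stretch from 30 bases before to 20 bases after the start annotated by RefSeq, build GRCm38.p6, 5′ to 3′ on the gene's strand, with the longest run of C and T in capitals.
Rpl27 (chr11:101442215-101442264, plus strand): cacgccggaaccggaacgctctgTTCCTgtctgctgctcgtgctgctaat
Rpl4 (chr9:64173357-64173406, plus strand): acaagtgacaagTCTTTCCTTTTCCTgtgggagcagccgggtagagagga
Rpl7a (chr2:26910777-26910826, plus strand): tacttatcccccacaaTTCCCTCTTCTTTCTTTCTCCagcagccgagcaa
Rps4x (chrX:102189372-102189421, minus strand): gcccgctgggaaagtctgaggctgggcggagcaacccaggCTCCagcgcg

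The runs are 21 bases in Rpl7a, 14 in Rpl4, 5 in Rpl27 and 4 in Rps4x, and where a run falls depends on the start that was annotated. Only the run of Rpl7a spans the annotated start. Those of Rpl27 and Rpl4 lie before it and that of Rps4x after it. Of the ribosomal protein genes, 38 have a single start in that table, and 26 of those (68.4%) hold a run of at least 6 bases in this window of 50 bases, with a median longest run of 7. Over all genes with a single start the share was 44.7% and the median 5, and for 23 proteasome genes 43.5% and 5. Rpl4 (log2 0.65 ± 0.11 with 12 libraries and 0.82 ± 0.13 with 9, adjusted p = 1.1e-05 and 4.5e-06) and Rpl7a (0.65 ± 0.11 and 0.79 ± 0.13, adjusted p = 1.7e-05 and 1.3e-05) rose as Rpl27 and Rps4x did.

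The proteasome, the complex that degrades ubiquitin-tagged proteins, also rose across most of its subunits in the fits without length and GC offsets. With 12 libraries 24 of 31 subunit genes were higher and 0 lower (median log2 change 0.35), and with 9 libraries 27 and 0 (median 0.51). Psmd4, a ubiquitin receptor of the regulatory particle, was 116, 126 and 133 CPM at 20 months and 121, 174 and 260 CPM at 28 months, and only replicate 8 fell within the 20-month range. It rose by a log2 of 0.59 ± 0.11 (edgeR adjusted p = 3.2e-05) and 0.86 ± 0.11 (adjusted p = 5e-08). The ATPase subunit gene Psmc3 rose by 0.49 ± 0.09 and 0.68 ± 0.09 (adjusted p = 1.7e-05 and 3e-07) and the core subunit gene Psmb4 by 0.55 ± 0.10 and 0.70 ± 0.12. With the length and GC offsets 3 subunits rose with 12 libraries, a share near the 8.77% of all genes called higher in that fit. With 9 libraries and the offsets 16 rose, where 9.87% of all genes did. In the fits without offsets, leaving replicate 13 out gave 16 rises in either set.

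Of 26 genes of autophagy and the lysosome, 10 rose and 4 fell with 12 libraries, and 11 rose and 1 fell with 9. Those that rose included Map1lc3a and Map1lc3b, whose products coat autophagosomes. Map1lc3b was 145 to 160 CPM at 20 months and 173 to 371 CPM at 28 months, without overlap (log2 0.62 ± 0.12 and 0.88 ± 0.12, adjusted p = 5e-05 and 7.2e-07). The lysosomal protease gene Ctsl rose by 0.48 ± 0.11 and 0.62 ± 0.12, and Lamp2, a lysosomal membrane protein, fell by 0.47 and 0.41 on the log2 scale (adjusted p = 0.00031 and 0.013), a fall not called with the offsets (adjusted p = 0.1).

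Genes of fast fibres were higher at 28 months, with the highest summed level in replicate 9. Of 16 fast fibre genes 9 rose and 0 fell with 12 libraries (median log2 change 0.76), and 12 rose and 0 fell with 9 (median 1.06). Without replicate 9 the counts were 7 and 0 in either set, with medians of 0.59 and 0.79. With the length and GC offsets 3 rose with 12 libraries and 11 with 9. Myoz1, which links fast fibre Z-discs to calcineurin, was 141, 158 and 252 CPM at 20 months and 218, 318 and 1058 CPM at 28 months. Replicates 8 and 11 lay within the 20-month range, replicate 10 at its upper edge and replicate 9 far above the rest. The log2 change was 1.29 ± 0.26 (edgeR adjusted p = 0.00016) and 1.74 ± 0.29 (adjusted p = 1.2e-05), and 0.82 (adjusted p = 0.0072) with 12 libraries less replicate 9. Fast troponin T, Tnnt3, was 2914 to 4572 CPM and 3672 to 9899 CPM (log2 0.70 ± 0.19, adjusted p = 0.0031, and 0.95 ± 0.21, adjusted p = 0.00055), and the fast regulatory light chain Mylpf rose by 0.81 ± 0.21 (adjusted p = 0.0032) and 1.13 ± 0.24 (adjusted p = 0.00037).

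The myosin heavy chains themselves, which define fibre types, did not pass with 12 libraries. Slow Myh7 was 11760, 15070 and 18420 CPM at 20 months and 6170, 9017 and 12870 CPM at 28 months (log2 -0.61 ± 0.29, adjusted p = 0.1). Myh2 of fast oxidative fibres had a log2 change of -0.48 ± 0.22 (adjusted p = 0.097), Myh1 of fast IIX fibres 0.99 ± 0.41 (adjusted p = 0.059) and Myh4 of fast glycolytic fibres 2.32 ± 1.45 (adjusted p = 0.23). Myh4 ranged from 14.25 to 3068 CPM at 20 months and from 37.6 to 14040 CPM at 28 months, overlapping over most of its range. With 9 libraries Myh1 was called (1.29 ± 0.47, adjusted p = 0.038), and 3 of the 9 leave-one-out fits kept that call. Of the 16 slow fibre genes 1 rose and 3 fell with 12 libraries and 1 rose with 9. The one that rose was Sln, which encodes sarcolipin, an inhibitor of the calcium pump (log2 0.98, adjusted p = 0.044, and 1.47, adjusted p = 0.0086), and its call with 12 libraries held in 4 of 12 leave-one-out fits. The 3 were Atp2a2, the calcium pump of slow fibres (log2 -0.84 ± 0.26, adjusted p = 0.0096), Casq2, the slow calsequestrin (-0.79 ± 0.20, adjusted p = 0.0019), and Pln, phospholamban (-1.55 ± 0.40, adjusted p = 0.0027). None of these 3 passed with 9 libraries.

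Glycolysis and glycogen genes followed the fast fibre genes. With 12 libraries 10 of 24 rose and 1 fell, and with 9 libraries 13 rose and 0 fell (medians 0.26 and 0.44), and without replicate 9 only 3 rose in either set. With the length and GC offsets 1 rose with 12 libraries, and 9 rose in the set of 9 libraries. Gpi1, the second enzyme of glycolysis, was 382 to 420 CPM at 20 months and 399 to 942 CPM at 28 months (log2 0.50 ± 0.10, adjusted p = 0.00023, and 0.76 ± 0.11, adjusted p = 1.1e-06). Pfkfb3, an activator of glycolysis, reached 215 CPM in replicate 9 and was 16.0 to 52.5 CPM in the other 28-month libraries, against 16.3 to 24.5 CPM at 20 months. It and lactate dehydrogenase Ldha lost their calls without replicate 9.

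Of 26 scaffold genes of the sarcomere and its membrane attachments 1 rose and 10 fell with 12 libraries (median -0.35), while with 9 libraries 4 rose and 4 fell (median -0.09). Sgcd, a sarcoglycan of the dystrophin complex, was 33.0, 37.8 and 41.1 CPM at 20 months and 8.56, 11.6 and 17.0 CPM at 28 months, with a clear gap between the ages. It fell by 1.66 (SE 0.21, edgeR adjusted p = 5e-08) and by 1.40 (SE 0.27, adjusted p = 9.9e-05) on the log2 scale. Utrophin, Utrn, fell by 1.11 (SE 0.20, adjusted p = 3e-05) and 1.22 (SE 0.25, adjusted p = 0.00028), and dystrophin, Dmd, by 1.00 (SE 0.20, adjusted p = 0.00015) and 0.75 (SE 0.25, adjusted p = 0.024). The intermediate filament gene Des rose, by 0.73 ± 0.16 (adjusted p = 0.00034) and 1.11 ± 0.16 (adjusted p = 6.5e-07). The median transcript length of this list was 5538 bases, and with the offsets 3 members fell with 12 libraries, among them Sgcd and Utrn, and Dmd passed in neither fit. Its log2 change was then -0.23 with 12 libraries (edgeR adjusted p = 0.4) and 0.0705 with 9, the opposite direction (adjusted p = 0.85).

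In excitation and calcium handling 3 of 24 genes rose and 7 fell with 12 libraries, and 4 rose and 2 fell with 9. The shares were 12.5% and 29.2%, against 17.3% and 12.6% over all genes, with 12 libraries, and 16.7% and 8.33%, against 11.5% and 9.98%, with 9. The median transcript length of this list was 4438 bases. With the length and GC offsets 1 rose and 0 fell with 12 libraries, and 5 rose and 0 fell with 9. Cacng1, a subunit of the muscle calcium channel, was 48.8 to 63.1 CPM at 20 months and 64.4 to 378 CPM at 28 months, without overlap (log2 1.45 ± 0.24, adjusted p = 7.8e-06, and 2.05 ± 0.23, adjusted p = 1.1e-08). The potassium channel gene Kcnma1 fell from 120 to 174 CPM to 38.9 to 83.1 CPM (log2 -1.15 ± 0.19, adjusted p = 7e-06, and -0.90 ± 0.23, adjusted p = 0.0031), which with 12 libraries did not pass with the offsets (adjusted p = 0.11).

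Collagen and matrix genes were lower at 28 months. With 12 libraries 0 of 35 rose and 19 fell (median log2 change -0.68), and with 9 libraries 0 rose and 27 fell (median -1.21). The summed level was 2728 to 3383 CPM at 20 months and 696 to 6968 CPM at 28 months, where the highest value belonged to replicate 10, the library with cartilage and bone genes. Nid1, which encodes nidogen of the basement membrane, was 70.8, 84.4 and 94.3 CPM at 20 months and 18, 32.8 and 48.5 CPM at 28 months, without overlap. It fell by 1.32 (SE 0.18, edgeR adjusted p = 2.5e-07) and 1.53 (SE 0.24, adjusted p = 3.8e-06) on the log2 scale. Timp3, an inhibitor of matrix proteases, fell by 1.19 (SE 0.23) and 1.36 (SE 0.29), and Col4a1, a basement membrane collagen, by 1.04 (SE 0.22) and 1.29 (SE 0.28). In bulk tissue fewer cells of a type and less RNA per cell cannot be told apart. Leaving replicate 9 out of the 9 libraries reduced the count of falls from 27 to 13, and leaving out replicate 13 reduced it to 17.

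Tendon genes fell the most of the matrix lists. Of 14 tendon markers 0 rose and 10 fell with 12 libraries (median -1.43), and 0 rose and 12 fell with 9 (median -2.01). The list summed to 835 to 1098 CPM at 20 months and to 137 to 710 CPM at 28 months, without overlap. Thbs4, a thrombospondin of tendon and muscle attachment, was 200, 237 and 260 CPM at 20 months and 39.0, 92.7 and 127 CPM at 28 months (log2 -1.46 ± 0.30, adjusted p = 0.00016, and -1.83 ± 0.39, adjusted p = 0.00041). Prg4, lubricin, fell by 1.62 (SE 0.37, adjusted p = 0.00061) on the log2 scale with 12 libraries. With 9 libraries the count of falls was 7 without replicate 9 and 6 without replicate 13. How much tendon was taken with each muscle is not recorded in the sources used here, and its part in these falls was not tested. Markers of fibro-adipogenic progenitors, the matrix-producing fibroblasts of muscle, fell for 3 of 14 genes with 12 libraries and 6 with 9, and Pdgfra, their defining receptor, was 25.2 to 33.3 CPM at 20 months and 5.08 to 24.2 CPM at 28 months (log2 -0.89 ± 0.23, adjusted p = 0.0022, and -1.39 ± 0.28, adjusted p = 0.00021). Without replicate 9 1 of the 14 was called in either set, and without replicate 13 1 and 3 were.

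Vessel genes were lower as well. Of 17 endothelial markers 0 rose and 10 fell with 12 libraries (median -0.55), and 9 fell with 9 (median -0.75). The list summed to 1066 to 1264 CPM at 20 months and 265 to 969 CPM at 28 months, without overlap. Ptprb, a phosphatase of endothelial cells, was 91.0, 110 and 142 CPM at 20 months and 16.4, 40.7 and 51.9 CPM at 28 months (log2 -1.60 ± 0.20, adjusted p = 4e-08, and -1.68 ± 0.27, adjusted p = 6.6e-06). The growth factor receptors Flt1 and Kdr fell by 1.40 (SE 0.22) and 1.37 (SE 0.23) on the log2 scale. Without replicate 13, which had the lowest endothelial sum, 6 of 17 were called with 12 libraries and 2 with 9. Of 13 smooth muscle and pericyte markers 1 rose and 8 fell with 12 libraries, and 1 rose and 7 fell with 9. Rgs5, the pericyte marker, was 443, 457 and 483 CPM at 20 months and 95.4, 182 and 225 CPM at 28 months. It fell by 1.42 (SE 0.17, adjusted p = 1.5e-08) and 1.53 (SE 0.22, adjusted p = 1.3e-06) and kept the call without any one library. Notch3 and the smooth muscle myosin Myh11 fell by 1.44 (SE 0.25) and 1.31 (SE 0.24), while the 1 member that rose was desmin, which muscle fibres also make. Without replicate 13 5 of these markers fell with 12 libraries and 2 with 9.

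**Figure D4:**
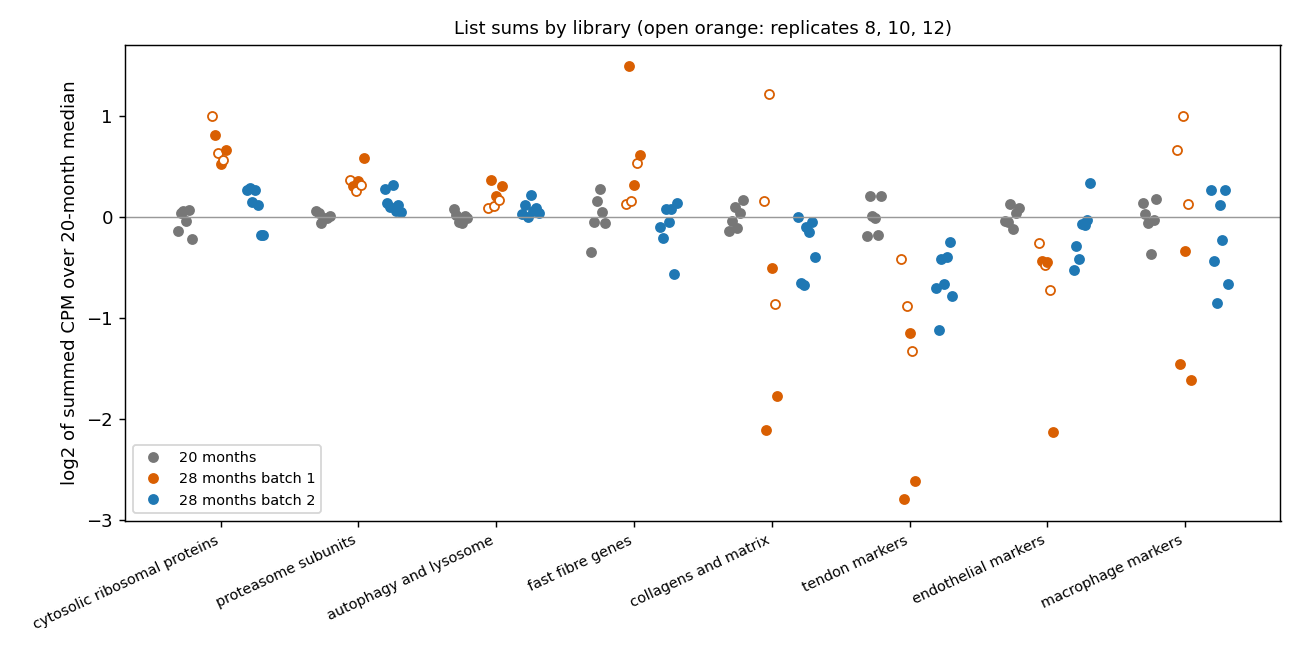
Log2 of each library's summed CPM over the median of the 20-month libraries, for 8 gene lists, in 20-month (grey), 28-month batch 1 (orange, with replicates 8, 10 and 12 as open circles) and 28-month batch 2 (blue) libraries. Ribosomal protein sums of batch 1 lie above those of 20 months (15980 to 22170 against 9572 to 11630 CPM) and tendon and endothelial sums below. Batch 2 tendon sums (438 to 802 CPM) also lie below those of 20 months (835 to 1098 CPM), and its ribosomal protein and endothelial sums overlap with 20 months.

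Resident macrophage genes fell in part. With 12 libraries 1 of 18 markers rose and 3 fell, and with 9 libraries 0 rose and 8 fell. The shares with 12 libraries were 5.56% and 16.7%, against 17.3% and 12.6% over all genes. With 9 libraries 44.4% fell, against 9.98% over all genes. Lyve1, found on macrophages beside vessels, was 12.5, 15.2 and 22.7 CPM at 20 months and 3.30, 4.61 and 12.5 CPM at 28 months. It fell by 1.38 (SE 0.27, edgeR adjusted p = 9e-05) and 2.01 (SE 0.33, adjusted p = 1.4e-05) on the log2 scale. Cd163, a scavenger receptor of resident macrophages, fell by 1.33 (SE 0.32) and 2.02 (SE 0.41). With 9 libraries 5 markers fell without replicate 9 and 4 without replicate 13. The 1 that rose was Ly6c2, a monocyte gene, at 30.2 and 18.6 CPM in replicates 10 and 12 and at most 1.05 CPM in the other 10 libraries.

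Genes of energy metabolism changed by small amounts. Of 36 nuclear genes of respiratory complex I 11 rose and 1 fell with 12 libraries (median 0.30), and 4 rose and 1 fell with 9 (median 0.29). The shares that rose were 30.6% and 11.1%, against 17.3% and 11.5% over all genes. With 9 libraries the complex I share was thus near that of all genes. Complex I genes are short (median 1025.5 bases), and with the offsets 1 rose with 12 libraries and the median was 0.02. Ndufs7 was 153 to 199 CPM at 20 months and 178 to 305 CPM at 28 months (log2 0.42 ± 0.14, adjusted p = 0.014), and the one that fell, Ndufs1, was 428 to 495 and 208 to 430 CPM (log2 -0.45 ± 0.14, adjusted p = 0.0093). Without replicate 13 1 complex I gene was called higher with 12 libraries and 0 with 9, and without replicate 12 4 were. Of the nuclear genes of complexes II to V 5 of 40 rose (12.5%, against 17.3% of all genes) and 1 fell with 12 libraries. With 9 libraries 4 rose (10%, against 11.5% of all genes) and 0 fell. With 12 libraries 1 rose and 2 fell without replicate 13, 10 rose without replicate 11 and 9 without replicate 9, and with 9 libraries 0 rose without replicate 13. Cox6a1 had the lowest p (18.4 to 23.5 CPM and 23.9 to 44.9 CPM, log2 0.73 ± 0.16, adjusted p = 0.00037), and did not pass with 9 libraries (adjusted p = 0.055). Of the 13 messenger RNAs of the mitochondrial genome 1 was called with 12 libraries, mt-Nd5, which was 14440 to 15860 CPM at 20 months and 5548 to 11740 CPM at 28 months (log2 -0.85 ± 0.29, adjusted p = 0.019), and 0 with 9.

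Genes of fatty acid uptake and oxidation fell for 8 of 25 and rose for 1 with 12 libraries (median -0.23), and fell for 3 with 9. The shares that fell were 32% and 12%, against 12.6% and 9.98% over all genes, so that the share with 9 libraries was near that of all genes. Cd36, the fatty acid transporter, was 790 to 922 CPM at 20 months and 448 to 603 CPM at 28 months, without overlap (log2 -0.71 ± 0.14, adjusted p = 7.6e-05, and -0.69 ± 0.17, adjusted p = 0.0022). Acsl1, which activates fatty acids, fell by 0.64 (SE 0.13) and 0.62 (SE 0.16) on the log2 scale, and did not pass with the offsets (adjusted p = 0.26). Without replicate 9 4 of the 25 fell, and with the offsets 2 fell with 12 libraries and 0 with 9. In the tricarboxylic acid cycle 0 of 25 genes rose and 4 fell with 12 libraries, and 1 fell with 9, with Ogdh, a subunit of the alpha-ketoglutarate dehydrogenase complex, at 1028 to 1181 CPM and 598 to 862 CPM (log2 -0.53 ± 0.13, adjusted p = 0.0017, and -0.45 ± 0.16, adjusted p = 0.041). With 12 libraries the count of falls in this cycle ranged from 2 without replicate 11 to 8 without replicate 13. The share of falls with all 12 (16%) was near the 12.6% over all genes, and with the offsets 1 gene fell. Among 20 regulators of mitochondrial biogenesis 2 rose and 8 fell with 12 libraries, and 2 rose and 5 fell with 9, or 2 fell without replicate 9. The nuclear receptor genes Esrrg (94.9 to 239 and 46.4 to 81.9 CPM, log2 -1.45 ± 0.27, adjusted p = 4.2e-05) and Ppara (29.6 to 52.1 and 8.08 to 21.5 CPM, log2 -1.44 ± 0.31, adjusted p = 0.00028) were among those that fell. Transcripts of these 20 regulators are long (median 4227.5 bases), and with the offsets 1 rose and 4 fell with 12 libraries. With 9 libraries and the offsets 3 rose and 0 fell.

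Of 26 genes of denervation and the neuromuscular junction 4 rose and 3 fell with 12 libraries, and 6 rose and 3 fell with 9 (medians 0.06 and 0.37). With 12 libraries these shares (15.4% and 11.5%) were near those over all genes (17.3% and 12.6%), and 2 genes rose when any of 28-month replicates 11 and 12 or 20-month replicates 3, 4, 5 and 6 was left out. Besides Gadd45a, Rapsn, which clusters acetylcholine receptors, rose by a log2 of 0.44 ± 0.13 (edgeR adjusted p = 0.0064) and 0.61 ± 0.13 (adjusted p = 0.00034). Dach2, a repressor that muscle loses after denervation, was 32.7, 34.4 and 40.3 CPM at 20 months and 11.1, 14.9 and 20.9 CPM at 28 months, without overlap (log2 -1.24 ± 0.21, adjusted p = 1.3e-05, and -1.14 ± 0.27, adjusted p = 0.0012). Etv5 fell by 0.69 (SE 0.13, adjusted p = 5.9e-05) and 0.60 (SE 0.16, adjusted p = 0.0055). With the length and GC offsets 1 gene of this list rose and 3 fell with 12 libraries. With 9 libraries and the offsets 5 rose and 0 fell, so that neither Dach2 nor Etv5 was called lower there.

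Of 26 genes of muscle atrophy and FoxO signalling 9 rose and 4 fell with 12 libraries (median 0.28), and 10 rose and 1 fell with 9 (median 0.52). Trim63, the ubiquitin ligase MuRF1, was 87.5, 105 and 128 CPM at 20 months and 100, 212 and 412 CPM at 28 months, with replicates 8 and 10 within the 20-month range. It rose by 1.04 ± 0.23 (adjusted p = 0.00045) and 1.43 ± 0.24 (adjusted p = 1.5e-05) on the log2 scale. Eif4ebp1, an inhibitor of translation that FoxO factors induce, rose by 1.31 ± 0.23 (adjusted p = 2.1e-05) and 1.83 ± 0.23 (adjusted p = 1.5e-07), with 218 CPM in replicate 9 and 38.6 to 65.0 CPM in the other 28-month libraries, above 28.4 to 36.1 CPM at 20 months. Sesn3 fell by 1.15 (SE 0.24, adjusted p = 0.00023) and 0.94 (SE 0.31, adjusted p = 0.02). With the length and GC offsets 8 genes of this list rose and 1 fell with 12 libraries. With 9 libraries and the offsets 12 rose and 0 fell, so that Sesn3 was not called lower there. Without replicate 9 the list held 5 rises and 5 falls with 12 libraries and 7 and 0 with 9. Among 26 growth factor and insulin signalling genes 3 rose (11.5%, against 17.3% of all genes) and 6 fell with 12 libraries, with 3 falls without replicate 12 or without replicate 13, and 4 rose and 2 fell with 9. They included Akt2, which rose by 0.48 ± 0.14 and 0.72 ± 0.15, and the insulin receptor Insr, which fell by 1.02 (SE 0.18) and 0.75 (SE 0.22) on the log2 scale. With the length and GC offsets 2 genes of this list rose and 0 fell with 12 libraries, and 3 rose and 1 fell with 9.

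Among p53 and senescence genes 4 of 20 rose and 2 fell with 12 libraries, and 4 rose and 1 fell with 9. With 12 libraries the shares (20% and 10%) were near those over all genes (17.3% and 12.6%). Cdkn1a, which encodes the cell cycle inhibitor p21, was 20.01, 26.2 and 30.03 CPM at 20 months and 36.5, 62.9 and 94.5 CPM at 28 months, without overlap. It rose by a log2 of 1.29 ± 0.40 (adjusted p = 0.01) and 1.54 ± 0.46 (adjusted p = 0.011). With the offsets it did not pass with 12 libraries (adjusted p = 0.08), and with 9 it was not called without replicate 11. Bax, a mediator of cell death, rose by 0.82 ± 0.15 (adjusted p = 5e-05) and 0.81 ± 0.18 (adjusted p = 0.00078). The senescence marker Cdkn2a was low in level, at 0.053 to 0.27 CPM and 0 to 0.661 CPM (log2 0.58 ± 0.90, adjusted p = 0.68), and the stress cytokine Gdf15 at 0.346 to 1.04 and 0.124 to 2.32 CPM (log2 0.56 ± 0.65, adjusted p = 0.56).

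Antioxidant genes rose for 13 of 23 and fell for 1 with 12 libraries (median 0.49), and rose for 10 with 9 (median 0.40), or 4 without replicate 13. The shares that rose were 56.5% and 43.5%, against 17.3% and 11.5% over all genes. With the length and GC offsets 6 rose in either set (medians 0.23 and 0.44), where 8.77% and 9.87% of all genes did. Sod1, superoxide dismutase, was 85.3, 91.1 and 95.1 CPM at 20 months and 104, 134 and 186 CPM at 28 months, without overlap (log2 0.62 ± 0.11, adjusted p = 2.6e-05, and 0.72 ± 0.13, adjusted p = 3e-05). Txn1, thioredoxin, rose by 0.77 ± 0.14 and 0.82 ± 0.16. Gpx1, glutathione peroxidase, rose with 12 libraries (1.44 ± 0.27, adjusted p = 4.2e-05) with its highest values, 161 and 79.1 CPM, in replicates 10 and 12, which had the highest neutrophil sums, and did not pass with 9 (adjusted p = 0.12). Of 24 stress response genes of the endoplasmic reticulum tested 5 rose with 12 libraries (20.8%, against 17.3% of all genes) and 4 with 9, and Chac1, a target of ATF4 that degrades glutathione, went from 3.94 to 7.90 CPM to 3.64 to 98.7 CPM (log2 2.47 ± 0.53, adjusted p = 0.00032, and 3.12 ± 0.55, adjusted p = 3.4e-05).

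Glucocorticoid-responsive and metallothionein genes depended on replicate 9. With 12 libraries 5 of 16 rose and 3 fell and with 9 libraries 6 rose and 1 fell, whereas without replicate 9 1 rose with 12 libraries and 0 with 9. Mt1, the metal-binding metallothionein, was 235 CPM in replicate 9 and 22.4 to 35.8 CPM in the other 28-month libraries, against 12.8 to 28.3 CPM at 20 months, and its log2 change of 1.81 ± 0.44 (adjusted p = 0.0014) became 0.68 (adjusted p = 0.18) without it. Klf9 fell by 0.50 (SE 0.13, adjusted p = 0.0032) and Nr3c1, the glucocorticoid receptor, by 0.65 (SE 0.13, adjusted p = 0.00016) on the log2 scale, and neither passed with the offsets (adjusted p = 0.23 and 0.37). Among 19 circadian clock genes 0 rose and 3 fell (15.8%, against 12.6% of all genes) with 12 libraries and 1 rose and 1 fell with 9. The 3 included Nr1d2 (130 to 166 CPM and 83.8 to 114 CPM, log2 -0.60 ± 0.16, adjusted p = 0.0044), which did not pass with 9 libraries (adjusted p = 0.06). Times of day of tissue collection were not given in the sources used here. Of 24 heat shock and chaperone genes 3 rose (12.5%) and 2 fell (8.33%) with 12 libraries, below the 17.3% and 12.6% of all genes. With 9 libraries 4 rose (1 without replicate 13) and 0 fell. Of 23 immediate early genes the same 2 (8.7%) rose in both fits, Myc (2.65 to 4.48 and 7.01 to 14.6 CPM, log2 1.53 ± 0.44, adjusted p = 0.0061) and Junb (1.26 ± 0.46, adjusted p = 0.03), which lost its call in 6 of 12 leave-one-out fits.

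Blood and immune genes rose in the libraries that carried them. With 12 libraries all 20 skin markers, all 16 neutrophil markers, 12 of 14 erythroid and megakaryocyte markers and 8 of 13 blood progenitor markers were called higher. With 9 libraries the counts were 0, 6, 0 and 0. Replicates 8, 10 and 12 were left out for their skin and marrow transcripts, so the loss of these calls was set by that choice and is no result. The 6 neutrophil genes were no longer called without replicate 9, whose level of the neutrophil protein gene Lcn2 was 42.9 CPM against 0.106 to 0.74 CPM at 20 months. Of 27 genes of DNA replication and mitosis, which marrow and skin cells use to divide, 21 rose with 12 libraries, 9 without replicate 10 and 0 with 9 libraries. Without replicate 10 5 erythroid and megakaryocyte and 4 progenitor markers were called. The summed level of the replication and mitosis list was 92.1 to 98.1 CPM at 20 months, 184, 244 and 568 CPM in replicates 12, 8 and 10, and 86.8 to 102 CPM in the 3 libraries kept. Of 39 interferon response and antigen presentation genes 14 rose with 12 libraries, among them Irf7 (2.87 to 8.66 and 8.78 to 26.9 CPM, log2 1.44 ± 0.40, adjusted p = 0.0043), and 0 with 9. That count was 7 without replicate 12, 9 without replicate 10 and 5 with 9 libraries less replicate 9.

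Lymphocyte genes were called in both fits, and with 9 libraries the calls rested on replicate 11. All 15 B and plasma cell markers rose with 12 libraries (median log2 change 4.77) and 12 of them with 9, and without replicate 11 14 rose with 12 libraries and 1 with 9. Ighm, the heavy chain of immunoglobulin M, was 3.08, 3.84 and 11.2 CPM at 20 months and 1.96, 38.4 and 632 CPM at 28 months. Its level was 461 CPM in replicate 11, 24.4 CPM in replicate 13 and 1.96 CPM in replicate 9. Xbp1, a transcription factor of plasma cells and of the stress response, rose without overlap in all 28-month libraries (54.2 to 69.6 and 81.5 to 142 CPM, log2 0.60 ± 0.13, adjusted p = 0.00037). Of 13 T and natural killer cell markers tested 8 rose with 12 libraries and 7 of these 8 with 9, and 0 with 9 less replicate 11. Ccl5, a chemokine of these cells, was 0.0265 to 0.127 CPM at 20 months and 0.0531 to 4.11 CPM at 28 months.

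Of the other lists of cell types, 0 of 15 Schwann cell and 0 of 18 adipocyte markers passed in either fit. The summed level of Schwann cell genes was 134 to 305 CPM at 20 months and 117 to 721 CPM at 28 months, with the highest value in replicate 10, and that of adipocyte genes 4486 to 5931 and 4013 to 6468 CPM. A large part of the adipocyte sum was a single gene, Car3 (2742 to 3858 and 2048 to 4694 CPM). Of 14 cartilage and bone markers 6 rose and 1 fell with 12 libraries, 0 rose without replicate 10, and 0 of 11 rose and 2 fell with 9. Among 23 satellite cell and myogenic genes 1 rose, the myogenic factor Myf6, and 3 fell, Fgfr4 and the vessel-expressed genes Notch3 and Cd34, and 3 rose and 4 fell with 9 libraries. With 12 libraries these shares were 4.35% and 13.0%, against 17.3% and 12.6% over all genes. Of 21 chemokine and cytokine genes 5 rose (23.8%, against 17.3% of all genes) and 1 fell with 12 libraries and 4 rose (1 without replicate 11) and 2 fell with 9. Of 20 complement genes 0 rose in either fit, and 1 fell with 12 libraries and 3 with 9.

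The 28-month F libraries of batch 2 show the level of the same genes in other control mice of that age. They share the 20-month libraries as comparison, so the values are given side by side. Against 20 months, 55 genes (0.302%) were called in batch 2, 18 higher (0.0988%) and 37 lower (0.203%), next to 5452 in batch 1. The count of 55 fell to 0 when 20-month replicate 4 was left out, and was 337 when the fit held the 2 compared groups alone, 145 by DESeq2 and 1602 by limma-voom, and leaving the mitochondrial genome out turned the split to 22 higher and 20 lower. No ribosomal protein, proteasome, fast fibre, tendon or endothelial gene of the lists was called in batch 2. The ribosomal protein sum was 9781 to 13570 CPM in batch 2, overlapping with 20 months and below every library of batch 1, and the median log2 change of that list was 0.07. The tendon sum was 438 to 802 CPM in batch 2, so that all 7 of its libraries lay below the 835 to 1098 CPM of 20 months. The tendon list had a median of -0.67 in batch 2, beside -1.43 in batch 1, and the collagen list -0.33 beside -0.68.

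Of the 26 denervation and neuromuscular junction genes 4 rose in batch 2. Some named genes were called at 28 months against the same 20-month libraries in both batches. Gadd45a had a log2 change of 2.55 (edgeR adjusted p = 0.022) in batch 2 beside 2.79 in batch 1, Cdkn1a 2.04 (adjusted p = 0.011) beside 1.29, Krt18 6.24 (adjusted p = 0.011) beside 4.88, and Timp3 -1.004 (adjusted p = 0.02) beside -1.19. Krt8, the partner of Krt18, was 0.0247 to 0.106 CPM at 20 months, 0.0551 to 3.08 CPM in batch 1 and 0.025 to 12.3 CPM in batch 2. The levels of Gadd45a in batch 2 spread from 10.7 to 165 CPM, overlapping with 20 months, and those of Cdkn1a from 37.7 to 234 CPM, above them. Of the 19 clock genes 4 fell in batch 2 (Per1, which was named after its values were seen, Per2, Nr1d2 and Hlf), where Nr1d2 had a log2 change of -0.68 (adjusted p = 0.03).

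Compared directly, the 28-month libraries of batch 1 and batch 2 differed in 3605 genes (19.8%), 2375 higher in batch 1 (13.0%) and 1230 lower (6.75%). The count was 1099 with only these 2 groups in the fit and 1271 by limma-voom. Ribosomal protein genes were higher in batch 1 for 54 of 56 (median log2 difference 0.64), and 12 of 16 fast fibre genes (median 0.88) and 19 of 31 proteasome genes (median 0.27) were higher too. Endothelial genes were lower in batch 1 for 8 of 17. Wnt4 was 2.56 to 6.03 CPM in batch 2, a log2 of 1.85 below batch 1 (adjusted p = 0.00049). Batch, cohort and handling cannot be told apart in this comparison.

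The difference between M and F libraries in the change from 20 to 28 months was tested as an interaction. By edgeR 0 of 18218 genes passed, with 1822 at an unadjusted p below 0.05, while 51 passed by DESeq2, 22 by limma-voom and 37 by edgeR without replicates 8, 10 and 12. The 3 lowest p belonged to Ctnna3, Gas2 and Ighm, all at an adjusted p of 0.11. Ctnna3, an adhesion protein gene, was 32.3, 36.5 and 45.8 CPM at 20 months and 13.7, 15.8 and 21.8 CPM at 28 months in F libraries (log2 -1.16 ± 0.16, adjusted p = 1.8e-07), and its means in M libraries were 29.3 and 26.2 CPM. Gas2 fell by a log2 of 1.11 (SE 0.21) in F libraries, with means of 4.53 CPM at 20 months and 5.24 CPM at 28 months in M libraries.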

How the data were processed

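Total RNA of soleus muscle was sequenced as paired reads of 150 bases, per the labels' protocols. The authors deposited 1 table of expected counts per gene, which hold fractions of reads (8.99% of values were not whole). The submitters' processing notes name FastQC, STAR 2.7.11b, RSEM 1.3.3 and the build mm10. Of its columns 55 were not used here. Counts were rounded, and rows without a gene symbol held 0.883% of them. Of 78 samples 2 that share an animal tag were summed, which left 77 replicates in 11 groups.

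Genes passed edgeR's filterByExpr at a minimum count of 10. The test was edgeR 4.0.16 (R 4.3.3) with TMM scaling, a quasi-likelihood fit with a mean per group over all 11 groups, and Benjamini-Hochberg adjustment at 0.05. DESeq2 1.42.0, limma 3.58.1 (voom with quality weights), other scalings, filters, a fold of 1.2, offsets on length and GC, and leaving out libraries were alternatives. No 2 libraries of an age agreed within sampling noise (30 pairs, chi-square per gene 19.3 to 364.5). Depth was 30453296 to 60018422 counts in the 12 libraries. On simulated data with 12 libraries (17918 genes), the test recovered 40.3% of the genes given a fold of 1.5, 68.7% at a fold of 2 and 93.9% at 4. With 9 libraries (17974 genes) the shares were 35.8%, 52.2% and 93.9%.

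Named genes were the 10 largest rises and falls called in both fits whose ages did not overlap and whose higher age averaged 1 CPM or more, the 6 largest rises with 12 libraries, up to 4 members per list and fit with the smallest p, the myosin, senescence and sex genes given, and the 3 lowest interaction p. Predicted genes, gene segments and pseudogenes were left out. Per1 falls outside the rule and was named after its values were seen. The libraries compared and the 45 gene lists were chosen with earlier results of these data known. Promoter sequences are from RefSeq, build GRCm38.p6.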

Additional observations from a re-analysis of the deposited data

Results flagged for a closer look

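In 53 of 326 groups of 6 libraries tested, 1 library lay farther from the others than Dixon's limit allows, where chance gives about 1 in 20. The values below are CPM of the library that lay apart, and no cause was tested.

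Replicate 9 of 28 months lay above the others for Myh4 (14040), Ldha (1594), Myoz1 (1058), Gpi1 (942), Mt1 (235), Eif4ebp1 (218), Pfkfb3 (215) and Xbp1 (142). It was also highest in the summed levels of fast fibre (89250), glycolysis (23330), smooth muscle and pericyte (10720) and atrophy genes (3740), and lowest in those of fatty acid (6606) and antioxidant genes (2290). Most of its smooth muscle and pericyte sum was desmin, which muscle fibres also make (10730 CPM after TMM scaling, which the sum does not use).

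Replicate 8 of 28 months lay above the others for the epidermal keratins Krt2 (1332), Krt5 (971), Krt14 (709), Krt1 (632) and Krt15 (310), and for Hlf (28.3) and Hhip (1.02). Its summed levels lay apart for skin (14600), fibro-adipogenic progenitor (2869), immediate early (1292) and simple keratin genes (142). Replicate 10 lay above the others for S100a9 (315), Gpx1 (161), Dok3 (20.9) and Cdkn2a (0.661). Its sums lay apart for neutrophil (1692), erythroid (769), Schwann cell (721), DNA replication (568) and cartilage genes (378).

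Replicate 11 was apart for Krt18 (36.4) and Cxcl10 (7.92), replicate 12 for Irf7 (26.9) and replicate 13 for the proteasome sum (4952). At 20 months, replicate 1 was apart for Ighm (11.2), Cilp2 (9.7, low), Gdf15 (1.04), Tbc1d10c (0.112, low) and the Schwann cell sum (305). Replicate 5 was apart for Junb (43.9), S100a9 (0.568) and the sums of interferon (1081) and neutrophil genes (2.66), replicate 4 for Myh4 (3068) and replicate 3 for Ctsl (99.6, low). The values of Krt2 in replicate 2 (0.0635) and of Krt1, Krt5 and Ly6c2 in replicate 6 (0.0486 each) were apart as well. Both libraries were above 0 for these keratins, where the other 20-month libraries were at 0, and Ly6c2 was lower than in the others.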

How the results depend on the processing

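With 12 libraries, the count of 5452 genes became 2785 when tested for a fold above 1.2, 2329 under offsets for length and GC, 3971 with only the compared groups, and 4542 to 5629 when 1 library was left out. By limma-voom 2067 genes were higher and 2376 lower, the other way from the 3155 and 2297 of edgeR. With 9 libraries, 3951 became 2556 by limma-voom, 1997 against a fold of 1.2, 2394 with offsets, 4543 with only the compared groups, and 2122 (without 28-month replicate 13) to 4026 when 1 library was left out. The M and F difference of 0 genes became 51 by DESeq2, 22 by limma-voom, 37 without replicates 8, 10 and 12, and 0 to 3 when 1 library was left out. For 28 months batch 2 against 20 months, 55 became 145 by DESeq2, 1602 by limma-voom, 20 with no filter, 10 against a fold of 1.2, 17 with offsets, 87 without libraries against their sex label, 337 with only the compared groups, and 0 to 66 when 1 library was left out. For batch 1 against batch 2, a comparison added after the data were seen, 3605 became 1271 by limma-voom, 1342 against a fold of 1.2, 1595 with offsets, 1099 with only the compared groups, and 2669 to 3872 when 1 library was left out. Counts per list without 28-month replicates 9 or 11 were also added after the data were seen. The cause of these shifts was not tested.

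Of the values of named genes under the alternatives 3373 kept direction and side of the threshold, 186 lost the call, 13 gained it and 4 reversed. The reversed ones were Cdkn2a by limma-voom (-0.63), Cdkn2a and Krt2 when 1 library was left out (-0.31 without 28-month replicate 10 to 0.93, and -2.14 without replicate 8 to 16.1), and Dmd with 9 libraries and offsets (0.0705). No paired analysis was possible because the 28-month batch 1 and 20-month libraries share no replicate number. In the other comparisons the numbers were not taken as pairs, since not every pair of same-numbered libraries deviated together (correlations -0.065 to 0.040 for batch 2 and 20 months, -0.094 to 0.0055 for F and M at 20 months, -0.023 to 0.23 for F and M at 28 months, where 2 of 3 correlated best with their own number). The replicate block gave 0 genes for the M and F difference, 49 for batch 2 against 20 months and 1358 for batch 1 against batch 2.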
